A study of Mus musculus with 4 samples.

Results

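Inhibitory receptors of myeloid cells and the ligands CD200 and CD47 were examined in mouse bone marrow dendritic cells (DC) that had been modulated by natural killer T (NKT) cells, against immature DC. The members were 10 genes, Cd200, Cd200r1, Cd47, Sirpa, Pirb, Clec4a3, Siglece, Siglecg, Cd300a and Havcr2, and a probe set was taken where one of them was its only annotated gene. By this rule 8 of the 10 genes were measured, with 13 of the 22626 probe sets tested. Clec4a3 and Siglecg had no probe set of their own, and only their promoter sequences were examined.

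The samples were 2 arrays of NKT-modulated DC and 2 arrays of immature DC. All were bone marrow DC of the strain C57BL/6, and the design text states that RNA was taken from CD11c cells. The design text speaks of triplicates, of another labelling protocol than the labels give, and of an array type with more probe sets than the table analysed here, and how the 2 arrays per group relate to those experiments is not stated. The labels give no age, sex, culture agent, dose or time of the modulation. Nothing says whether the arrays of a group came from separate cultures, so the p-values speak only to array-to-array spread, part or all of which may be technical. The values are hybridisation signals on a linear scale, 1 per probe set and array. Array medians were 135.6 and 129.0 in NKT-modulated DC and 145.7 and 158.1 in immature DC. Log2 levels correlated at 0.985 within NKT-modulated and 0.987 within immature DC, and at 0.960 to 0.965 between the groups.

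Inhibitory receptors set a threshold for the activation of DC and macrophages. Many carry immunoreceptor tyrosine-based inhibitory motifs (ITIMs), which, once phosphorylated by Src family kinases, recruit the phosphatases SHP-1, SHP-2 or SHIP-1. CD200R1 is an exception: it has no ITIM and acts through the adaptors DOK2 and DOK1 and RasGAP. Their ligands are often proteins or lipids of healthy or dying cells, such as CD200, CD47, MHC class I, sialylated glycans and phosphatidylserine.

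The members moved in both directions. Cd200 and Havcr2, which encodes TIM-3, were higher in NKT-modulated DC, and so was 1 of 3 probe sets of Sirpa. Cd200r1, Cd300a and the dim Siglece were lower, and Cd47 and Pirb did not pass the test with any probe set of their own. Of the 13 probe sets, 3 were called higher and 3 lower at an adjusted p under 0.05 (limma, Benjamini-Hochberg over all probe sets). Among all probe sets 5.36% were called higher and 5.7% lower. The median log2 change was 0.04 over the member probe sets and -0.03 over all probe sets. In 9 of the 13 the groups did not overlap, as in 53.5% of all probe sets. Changes are on the scale of log2(signal + 16) after quantile normalization, which understates the change of dim probe sets, and are NKT-modulated minus immature DC with SE, n = 2 arrays per group.

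**Figure D1:**
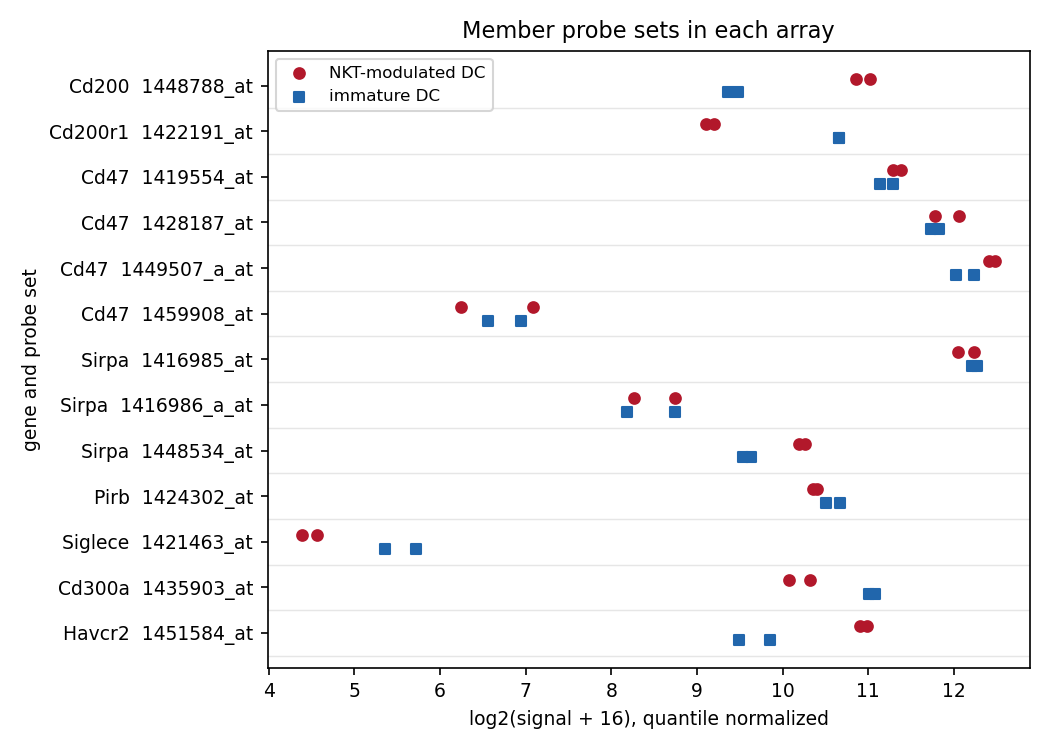
Level of each member probe set in each array, as log2(signal + 16) after quantile normalization (x axis), with NKT-modulated DC as red circles above and immature DC as blue squares below in each row. The groups do not overlap in 9 of the 13 rows, with the 6 called ones being Cd200, Cd200r1, Havcr2, Cd300a, Siglece and Sirpa 1448534_at; rows are not to be compared with each other, since probe sets differ in brightness.

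Markers of T and NKT cells moved in the same arrays. Over all genes, each by its brightest probe set, 6.34% were called higher and 7.58% lower. Of 16 measured T and NKT cell markers, 9 were higher and 0 lower, and their summed signal was 7004 and 5234 in the NKT-modulated arrays and 1169 and 1147 in the immature arrays. Cd3e, a chain of the T cell receptor complex, had signals of 394.6 and 199.8 in NKT-modulated DC and 10.4 and 7.11 in immature DC, and Cd3g had 1401 and 1046 against 19.0 and 15.4. Cd200 and Havcr2 are also transcribed in T cells, and the part of T cells in their rises was not tested. In NKT-modulated replicates 1 and 2, the log2 levels of Cd3e were 8.77 and 7.89. Those of Cd200 were 11.02 and 10.85, and those of Havcr2 were 10.91 and 10.99. With 2 arrays, whether these levels go together was not tested. In bulk RNA, fewer cells of a type and less RNA per cell cannot be told apart, and this holds for every fall given here.

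CD200 is a membrane glycoprotein with a short tail, carried by lymphocytes, endothelium, neurons and subsets of DC, that engages CD200R1 on myeloid cells. Its gene was measured by 1 probe set, 1448788_at, with deposited signals of 2052 and 1761 in the NKT-modulated arrays and 694.5 and 723.8 in the immature arrays. Both NKT-modulated arrays lay above both immature arrays, and the gap between the groups, 1.37 on the log2 scale, was wider than the distance between arrays of a group. Cd200 rose by 1.52 ± 0.10 (2.86-fold, 95% interval 1.26 to 1.77, adjusted p = 0.000737). The call held under 14 of 14 alternatives, with changes from 1.40 to 1.59. The promoter window of Cd200 (chr16:45409004-45409303, minus strand, GRCm38.p6, from RefSeq), 250 bases before to 50 after the annotated start, is shown because this gene had the steepest rise of the members; capitals mark a match to the core letters bound by PU.1, a transcription factor of myeloid cells and B cells.
Cd200 promoter: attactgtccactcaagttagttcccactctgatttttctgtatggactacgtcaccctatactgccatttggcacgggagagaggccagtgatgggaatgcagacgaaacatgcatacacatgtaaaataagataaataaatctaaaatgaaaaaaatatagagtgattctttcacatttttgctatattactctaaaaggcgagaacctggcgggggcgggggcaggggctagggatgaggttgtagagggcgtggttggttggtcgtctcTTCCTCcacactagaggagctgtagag

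CD200R1, the receptor of CD200 on DC, macrophages and mast cells, went the other way. The signals of Cd200r1 were 504.9 and 533.3 in the NKT-modulated arrays and 1542 and 1769 in the immature arrays. Again the groups did not overlap, and here the NKT-modulated arrays were the low ones. Cd200r1 fell by 1.50 ± 0.10 on the log2 scale (2.84-fold, 95% interval -1.73 to -1.27, adjusted p = 0.000547), with changes from -1.64 to -1.43 over its alternatives and the call held in 14 of 14. Ligand and receptor thus had changes of opposite sign, with intervals that do not meet. The paired relatives Cd200r2, Cd200r3 and Cd200r4, activating receptors of the same locus, and Cd200l1 had no probe set here. Of the adaptors through which CD200R1 acts, Dok2 rose by 0.38 ± 0.09 (adjusted p over genes = 0.0409), just inside the threshold. Its signals were 1683 and 1651 in NKT-modulated DC and 1331 and 1396 in immature DC. The call of Dok2 was lost without the intensity trend of the variance and without either NKT-modulated replicate. Dok2 and Fyn were the rises among the genes of the inhibitory signal. Only 1 rise was left there with robust variance or without further normalization. Dok1 had a change of 0.01 ± 0.14 and Rasa1, the gene of RasGAP, of -0.11 ± 0.10, with adjusted p = 0.988 and 0.530.

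**Figure D2:**
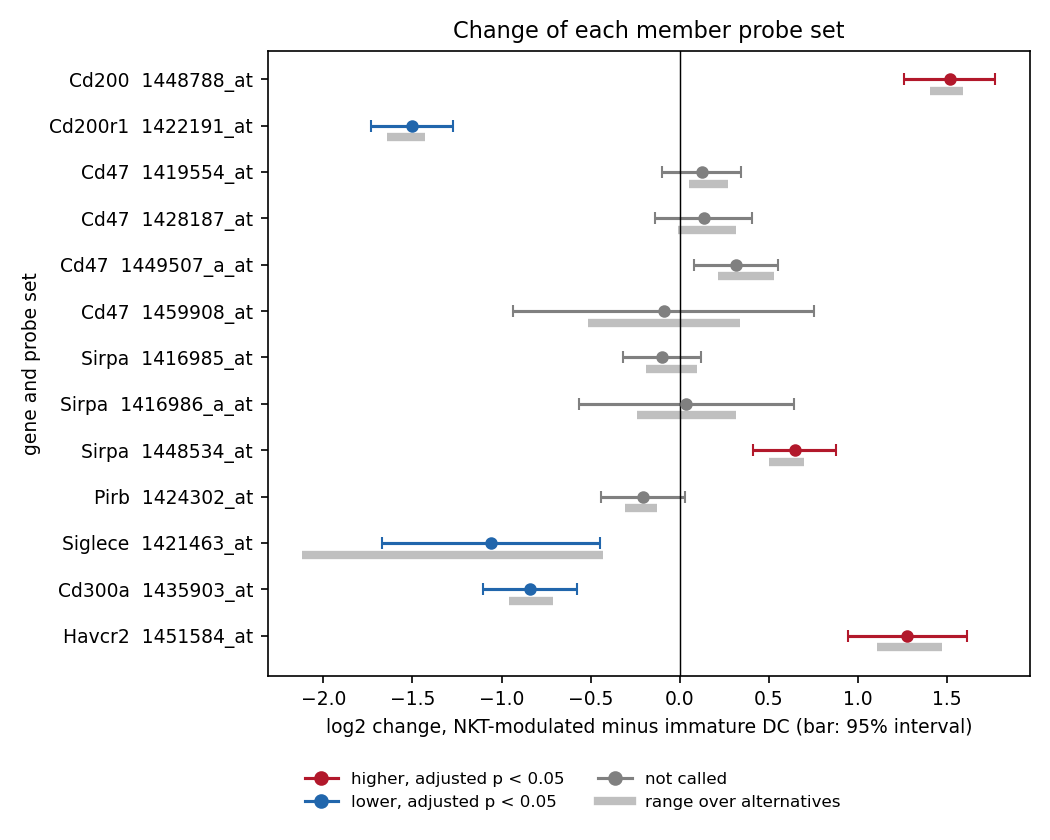
Log2 change of each member probe set, NKT-modulated minus immature DC (x axis), as a point with its 95% interval, red where called higher, blue where called lower and grey where not called; the light bar under each point spans the alternative settings. Cd200 at 1.52 and Cd200r1 at -1.50 lie at opposite ends, and the bar of Siglece spans -2.12 to -0.43.

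CD47, a surface protein of nearly all cells that restrains phagocytosis through SIRPA, was measured by 4 probe sets, of which 0 were called. The brightest, 1449507_a_at, had signals of 5704 and 5649 in the NKT-modulated arrays and 4541 and 4368 in the immature arrays. Its groups did not overlap, yet its change of 0.31 ± 0.10 missed the threshold (adjusted p = 0.101), and it passed under 3 of 14 alternatives: cyclic loess, median centring and the fit without dim probe sets. Probe sets 1419554_at and 1428187_at had changes of 0.12 ± 0.09 and 0.14 ± 0.11 (adjusted p = 0.474 and 0.533). The upper limits of their 95% intervals were 0.35 and 0.41. The fourth, 1459908_at, was dim, with signals of 61.5 and 109.7 in NKT-modulated DC and 78.7 and 115.8 in immature DC, and its 95% interval of -0.93 to 0.75 leaves room for a change in either direction.

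SIRPA, the ITIM receptor for CD47 on myeloid cells, gave probe sets that disagreed. Probe set 1448534_at had signals of 1120 and 1147 in the NKT-modulated arrays and 766.9 and 826.2 in the immature arrays, without overlap. This Sirpa probe set rose by 0.65 ± 0.10 (1.56-fold, adjusted p = 0.0101). The call was lost without NKT-modulated replicate 1 (adjusted p = 0.0634), without NKT-modulated replicate 2 (adjusted p = 0.0715) and without the intensity trend of the variance (adjusted p = 0.0748). The brightest Sirpa probe set, 1416985_at, overlapped between groups, with signals of 4314 and 4698 in NKT-modulated DC and 4652 and 4893 in immature DC. Its change was -0.10 ± 0.09 (adjusted p = 0.583, 95% interval -0.32 to 0.12), which does not meet the interval of 0.41 to 0.88 of 1448534_at. For 1416986_a_at, whose arrays also overlapped, the change was 0.04 ± 0.25 (adjusted p = 0.955). No direction for Sirpa as a gene can therefore be read from these probe sets.

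PIR-B, the product of Pirb, binds MHC class I and carries ITIMs, and its locus holds activating PIR-A genes of closely related sequence. The probe set annotated with Pirb alone had signals of 1309 and 1235 in the NKT-modulated arrays and 1397 and 1785 in the immature arrays. The NKT-modulated values were the lower ones without overlap, but the change of -0.21 ± 0.10 did not pass (adjusted p = 0.256, 95% interval -0.44 to 0.03). A further 3 probe sets match Pirb together with PIR-A genes, so their signals cannot be assigned to Pirb. Of these, 1418809_at and 1420464_s_at had changes of -0.45 ± 0.09 each, with adjusted p = 0.0265 and 0.0296, and 1452487_x_at had -0.39 ± 0.16 with adjusted p = 0.206.

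CD300a, an ITIM receptor that binds phosphatidylserine and phosphatidylethanolamine, was lower. Its signals were 1030 and 1197 in the NKT-modulated arrays and 2053 and 2230 in the immature arrays, with a gap of 0.69 on the log2 scale between the groups. Cd300a fell by 0.84 ± 0.11 (1.79-fold, adjusted p = 0.00602). Without the intensity trend the size was the same and adjusted p = 0.0625. The Cd300a promoter window (chr11:114889791-114890090, plus strand, GRCm38.p6) is shown as that of a falling ITIM receptor beside those of the rising genes, with the match to the PU.1 core in capitals.
Cd300a promoter: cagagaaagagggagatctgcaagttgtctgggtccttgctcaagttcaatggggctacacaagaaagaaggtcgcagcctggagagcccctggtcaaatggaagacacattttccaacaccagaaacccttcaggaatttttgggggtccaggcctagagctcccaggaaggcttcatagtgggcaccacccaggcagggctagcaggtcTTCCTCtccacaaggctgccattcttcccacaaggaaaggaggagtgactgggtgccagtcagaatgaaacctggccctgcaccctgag

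Siglec-E, the sialic acid receptor encoded by Siglece, carries an ITIM and is known from neutrophils, macrophages and DC. Its probe set was the dimmest of the members, with signals of 5.38 and 7.36 in NKT-modulated DC and 37.7 and 24.4 in immature DC. The NKT-modulated values lay below the pseudocount of 16, and no detection calls were used. Siglece fell by 1.06 ± 0.25 (adjusted p = 0.0486), just inside the threshold. Leaving out any 1 of the 4 arrays gave adjusted p from 0.085 to 0.177, and the change was -2.12 with a pseudocount of 1 and -0.43 with 64 (adjusted p = 0.0617 and 0.0548).

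TIM-3, encoded by Havcr2, is a receptor of activated T cells and of DC that binds galectin-9, phosphatidylserine and other ligands and signals without an ITIM. Havcr2 had signals of 1891 and 1942 in the NKT-modulated arrays and 698.6 and 1017 in the immature arrays. The groups did not overlap, although the immature arrays stood further from each other than the NKT-modulated arrays did. Havcr2 rose by 1.28 ± 0.14 (2.42-fold, 95% interval 0.95 to 1.61, adjusted p = 0.00311), and its changes over the alternatives ran from 1.11 to 1.48. Lgals9, the gene of galectin-9, had a change of -0.16 ± 0.09 (adjusted p = 0.318), and Ceacam1, another ligand, of -0.56 ± 0.16 (adjusted p = 0.0657). The Havcr2 promoter window (chr11:46454681-46454980, plus strand, GRCm38.p6) is the second shown for a rising gene. Its capitals mark, in order, a match to TGANTCA and a match to the PU.1 core. TGANTCA, where N is any base and here T, was the pattern searched for AP-1, a stress- and activation-induced factor.
Havcr2 promoter: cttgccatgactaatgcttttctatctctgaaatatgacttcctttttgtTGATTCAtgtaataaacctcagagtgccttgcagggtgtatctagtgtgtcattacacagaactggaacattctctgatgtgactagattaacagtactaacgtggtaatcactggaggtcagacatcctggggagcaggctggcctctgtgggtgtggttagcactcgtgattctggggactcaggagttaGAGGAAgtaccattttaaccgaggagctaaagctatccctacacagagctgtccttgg

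Promoter windows of the same length were searched on both strands for 3 motifs of factors that act in activated myeloid cells: the PU.1 core GAGGAA, AP-1 as TGANTCA, and the interferon-stimulated element, taken as a pair of GAAA blocks with any 2 bases between. Of the 10 members, 8 had windows in the table, 11 in all, with a pair of starts for Cd47, Clec4a3 and Siglecg. The PU.1 core was found in 7 of 11 windows (63.6%), against 28.3% of all 32851 windows, and in 7 of 8 genes, Cd47 being the one without. Genes that rose (Cd200, Havcr2), fell (Cd300a, Siglece) or were not called (Pirb) all had a match. The other genes with a match, Clec4a3 and Siglecg, had no signal of their own here. In the Cd200 window it lay 23 to 28 bases after the start, in that of Cd300a at -39 to -34 and in that of Havcr2 at -8 to -3. The AP-1 pattern TGANTCA occurred in 1 of the 11 member windows (9.09%), that of Havcr2, at -200 to -194. It occurred in 7.81% of all windows. The interferon-stimulated element had 0 matches in the 11 windows, against 3.44% of all windows. A match to a few letters is a description of the sequence, and no match says only that these letters are not in this window.

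**Figure D3:**
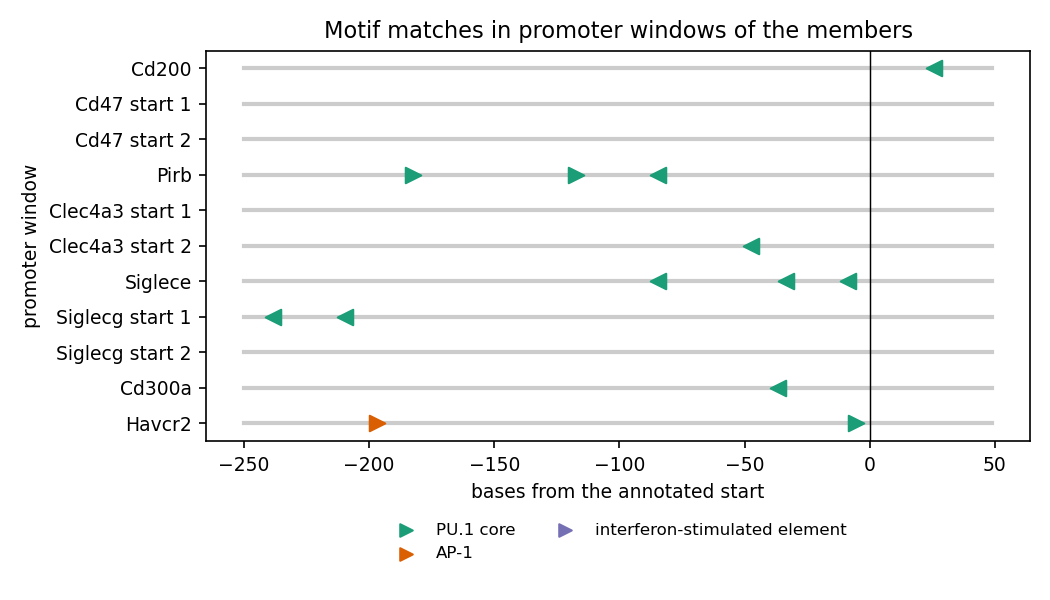
Motif matches in the promoter windows of the 8 member genes in the RefSeq table, by distance in bases from the annotated start, which counts as 0 (x axis); right-pointing triangles are matches on the strand of the gene, left-pointing ones on the other strand. Matches to the PU.1 core lie in 7 of 11 windows. The match to TGANTCA, the pattern searched for AP-1, lies in that of Havcr2, with T at the open base.

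A list of other inhibitory receptors, chosen with earlier results of these data known, held falls and no rise. At an adjusted p under 0.001, 0 of its genes were called. Of 24 listed genes outside the members, 16 were measured, and 6 were lower and 0 higher, with a median log2 change of -0.57 against -0.04 over all 12393 genes. Over all genes, each represented by its brightest probe set and adjusted over genes, 7.58% were called lower and 6.34% higher. Klrb1b, an inhibitory lectin of NK cells and some myeloid cells, fell by 1.64 ± 0.17, with signals of 212.0 and 283.5 in NKT-modulated DC and 895.5 and 912.4 in immature DC, and 2 of its 4 probe sets were called. Of 6 measured NK cell markers, Klrd1 fell by 1.91 ± 0.16 and Gzma rose by 1.69 ± 0.26. Their summed signal was 414.9 and 373.3 in NKT-modulated DC and 791.0 and 849.7 in immature DC, of which Klrd1 made up 134.2 and 160.5 in NKT-modulated DC and 638.5 and 716.6 in immature DC, so that gene alone sets the direction of the sum. The part of NK cells in the fall of Klrb1b was not tested. Pilra, an ITIM receptor for sialylated proteins, fell by 1.10 ± 0.09, and Vsir, which encodes the checkpoint protein VISTA, by 1.00 ± 0.10. Clec4a2, the DC inhibitory receptor DCIR, fell by 0.83 ± 0.08, and Cd300lf, the ITIM receptor CLM-1 of the CD300 family, by 0.71 ± 0.09. Adjusted p of these 5 lay between 0.00106 and 0.0043. The sixth was Cd72, an ITIM lectin best known from B cells, with adjusted p = 0.013. Of 9 B cell markers, Ighm fell by 0.99 ± 0.14 by its brightest probe set and Cd79b rose by 2.47 ± 0.23. Of 11 probe sets of Ighm, 2 were called lower. The summed signal of the 9 markers was 1049 and 1107 in NKT-modulated DC and 1407 and 1650 in immature DC. The brightest Ighm probe set alone sets that direction, with 423.7 and 543.3 in NKT-modulated DC and 1018 and 1155 in immature DC. Fcgr2b, the inhibitory Fc receptor, did not pass, with a change of -0.12 ± 0.09 (adjusted p = 0.470). Over 13 alternatives with the same threshold, 4 to 8 genes were lower and 0 higher.

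Genes of the inhibitory signal itself were split. Of 18 measured, 4 were lower and 2 higher, beside 7.58% and 6.34% of all genes. Ptpn6, which encodes SHP-1, had signals of 2240 and 2266 in NKT-modulated DC and 3760 and 4233 in immature DC and fell by 0.80 ± 0.08 (adjusted p = 0.00197). Inpp5d, which encodes the lipid phosphatase SHIP-1, fell by 0.95 ± 0.13 (adjusted p = 0.00654). The adaptor genes Pag1, whose product brings the kinase CSK to the membrane, and Dok3, a partner of SHIP-1, fell by 1.20 ± 0.09 and 1.04 ± 0.15. For Ptpn6, Inpp5d and Pag1, 1 of 2 probe sets was called. Ptpn11, which encodes SHP-2, had a change of -0.02 ± 0.08 (adjusted p = 0.933). The rises were Fyn, a Src family kinase also transcribed in T cells, whose part was not tested, at 0.54 ± 0.09 (adjusted p = 0.0144), and Dok2. Leaving out 1 array at a time left 3 to 4 genes lower; 0 were higher without either NKT-modulated replicate and 1 without either immature replicate.

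Activating counterparts moved in both directions as well. Of 18 measured activating partners and ITAM adaptors, the class that signals through SYK, 2 were higher and 4 lower. The shares over all genes were 6.34% and 7.58%. Clec4e, the lectin Mincle that senses mycobacterial lipids and dead cells, had signals of 4558 and 4425 in NKT-modulated DC and 1342 and 1631 in immature DC and rose by 1.63 ± 0.08 (adjusted p = 0.000162). Clec5a, a DAP12-coupled lectin, rose by 0.89 ± 0.11. Pilrb1, the activating partner of the receptor encoded by Pilra, fell by 1.32 ± 0.10 (adjusted p = 0.000901), so both genes of that pair were lower. Cd300c2, an activating gene of the CD300 family, and Plcg2, a phospholipase downstream of SYK, fell by 0.50 ± 0.10 and 0.58 ± 0.12. Fcer1g, the FcR gamma chain, was called lower over genes (-0.39 ± 0.09, adjusted p = 0.0453) but not over probe sets. Without NKT-modulated replicate 1 only 1 gene was lower, and without any other array 2. With median centring 4 were higher and 1 lower, which turns the balance of the counts.

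**Figure D4:**
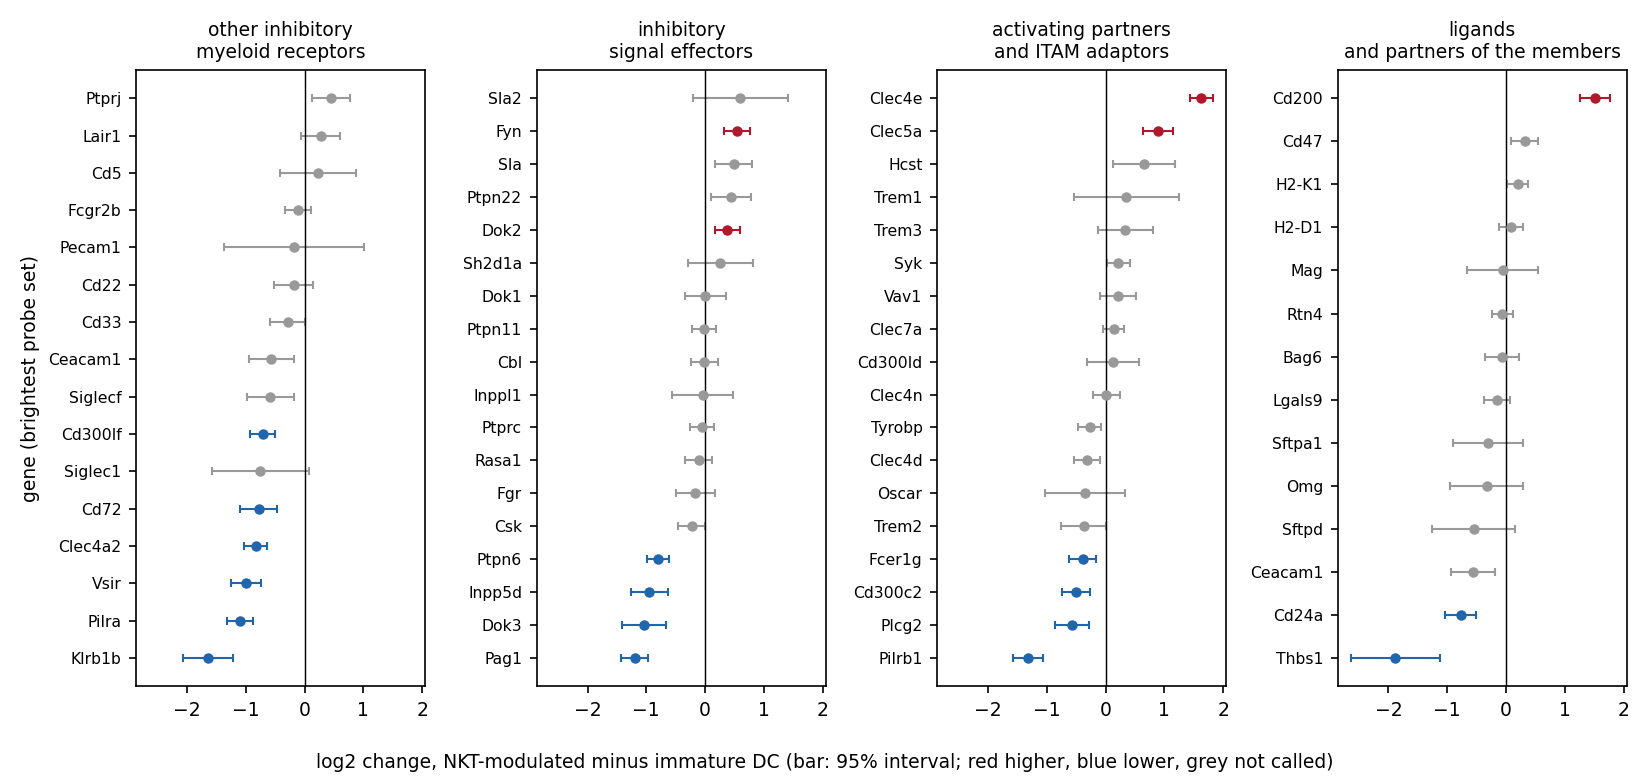
Log2 change of every measured gene in 4 lists, NKT-modulated minus immature DC (x axis), as a point with its 95% interval; red marks genes called higher, blue lower and grey not called, each gene by its brightest probe set. In the list of other inhibitory myeloid receptors 6 of 16 genes are blue and 0 red, from Klrb1b at -1.64 upward.

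Among 14 measured ligands and partners of the members, 1 was higher, Cd200 itself, and 2 were lower. Over all genes 6.34% were called higher and 7.58% lower. Thbs1, the gene of thrombospondin 1, a secreted ligand of CD47, had signals of 32.7 and 30.1 in NKT-modulated DC and 214.4 and 132.3 in immature DC and fell by 1.88 ± 0.31 (adjusted p = 0.0124), with 1 of 2 probe sets called. Cd24a, a sialylated protein that Siglec-G binds, fell by 0.77 ± 0.11 (adjusted p = 0.00702). Without NKT-modulated replicate 1, or without immature replicate 1, 1 of the ligand genes was lower. With median centring 3 ligand genes were higher, and with cyclic loess or without dim probe sets 2. The MHC class I genes H2-K1 and H2-D1, whose products PIR-B can bind, had changes of 0.20 ± 0.07 and 0.08 ± 0.08 (adjusted p = 0.135 and 0.566) by their brightest probe sets, while 2 of 4 probe sets of H2-K1 and 2 of 9 of H2-D1 were called higher and 0 lower. Of 8 genes listed as cell surface partners or controls of CD47, 2 were higher and 2 lower. The integrin genes Itgav and Itgb3 rose by 1.55 ± 0.12 and 1.21 ± 0.23. Lrp1, a receptor for apoptotic cell uptake, fell by 0.61 ± 0.11 beside Thbs1. In each direction, calls of this list were lost when any 1 array was left out. Of 3 probe sets of Itgav, 2 were called. Itgb3 had signals of 36.8 and 35.7 in NKT-modulated DC and was below the pseudocount of 16 in both immature arrays. The glycans that Siglecs read depend on sialic acid enzymes, of which 22 were measured, 2 higher and 2 lower. These counts were near the shares over all genes. St3gal1 and St6galnac4, sialyltransferases of O-glycans, rose by 1.28 ± 0.13 and 1.32 ± 0.13, while St6galnac2 and Nanp, a phosphatase of sialic acid synthesis, fell by 2.21 ± 0.22 and 0.61 ± 0.13. Of 2 probe sets of St6galnac2, 1 was called. The count of lower enzyme genes was 1 without either NKT-modulated replicate or immature replicate 1.

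Markers of the remaining cell types were read from the same fit, in which 6.34% of all genes were called higher and 7.58% lower. Among DC markers, Itgax, the gene of CD11c, and H2-Ab1, of MHC class II, were bright in all 4 arrays and not called, with changes of -0.19 ± 0.08 and 0.08 ± 0.08 (adjusted p = 0.183 and 0.601). Of 12 DC markers, the transcription factor genes Batf3, Irf4 and Irf8 rose by 1.74 ± 0.09, 1.14 ± 0.08 and 0.67 ± 0.09, and Itgam, the gene of CD11b, fell by 0.71 ± 0.14, a call lost without any 1 array. For Irf4, 1 of 2 probe sets was called. Of 10 macrophage and monocyte markers, 1 was higher and 4 lower. Their summed signals were 30713 and 30247 in NKT-modulated DC and 31692 and 31352 in immature DC. Mertk, a receptor for apoptotic cells, rose by 1.09 ± 0.09, and Ccr2, C1qa, C1qb and Fcgr1 were the falls. Without NKT-modulated replicate 1 there was 1 fall, and without NKT-modulated replicate 2 there were 2. The part of these cells in the falls of the inhibitory receptors was not tested. Of 10 stromal and endothelial markers 2 were higher, Kdr and Lum. The defining genes Ncr1 and Col1a1 were dim in both groups, with signals of 4.26 and 4.06 for Ncr1 and 28.4 and 18.4 for Col1a1 in NKT-modulated DC, and 3.61 and 3.46 for Ncr1 and 48.1 and 20.7 for Col1a1 in immature DC. Of 10 neutrophil markers 3 were higher and 1 lower: the chemokine receptor gene Cxcr2 rose by 2.69 ± 0.17, Ngp by 0.94 ± 0.19 and S100a8 by 0.62 ± 0.14, and Mmp8 fell by 0.51 ± 0.08. The count of higher neutrophil markers was 1 without NKT-modulated replicate 1 or immature replicate 1 and 2 without either other array, and 0 were lower without NKT-modulated replicate 1. Of 9 mast cell and basophil markers, Hdc, which makes histamine, rose by 3.38 ± 0.22 (adjusted p = 0.000529). Kit fell by 0.88 ± 0.18, with 1 of 2 probe sets called, while Cpa3 was not called (adjusted p = 0.371). No marker of this list was lower without NKT-modulated replicate 2 or without either immature replicate.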

How the data were processed

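Signal intensities, 1 per probe set and array, were used as the authors deposited them. Per the submitters' processing notes, GCOS, the software of the array maker, produced them. No source used here gives its version, how probes were summarised or the scaling target. Although a log transformation is described in the design text, the deposited intensities are linear, with medians from 129.0 to 158.1, and no detection calls were used. The 64 control probe sets were left out. Of 22626 probe sets, 20380 had 1 gene symbol in the platform annotation, 691 several and 1555 were unnamed here.

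Signals were turned into log2(signal + 16), quantile normalized and tested in limma (version 3.58.1, under R version 4.3.3, two-sided, by lmFit and by eBayes with the variance following intensity), over 4 arrays with 2 residual and 4.13 prior degrees of freedom. P-values were adjusted by Benjamini-Hochberg over probe sets for the members, and over 12393 genes, each by its brightest probe set, for the lists. On simulated arrays, with 250 changed probe sets per size pooled over several runs, the fit recovered 1.2% of log2 changes of 0.5 and 22% of 1. It recovered 69.2% of changes of 2 and 92.4% of 3. Each run changed a far smaller share of the probe sets than was called in the data. The Benjamini-Hochberg adjustment was therefore stricter there, and these percentages do not give the recovery in the fit reported. A gene that was not called is not shown to be unchanged. The genes named are all members, per list the called genes of lowest p, at most 5, or 2 uncalled ones where there was no call, up to 3 of each marker list, and defining markers; Dok1, Rasa1, Lgals9, Ceacam1, Ptpn11, Fcgr2b, Cd72, Fcer1g, Itgam, C1qb, Fcgr1, H2-K1, H2-D1 and Dok2 were named for their roles or to complete a count, after their values were seen. The members and lists were chosen with earlier results of these data known. Alternatives were pseudocounts of 1 and 64, other normalizations, a filter on dim probe sets, other variance models, the threshold of 0.001 of the design text and leaving out each array.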

Additional observations from a re-analysis of the deposited data

How the results depend on the processing

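Cd200, Cd200r1 and Havcr2 kept their direction under every alternative run; Cd200 and Cd200r1 also kept their calls, and Havcr2 lost its call only at an adjusted p under 0.001. At that threshold 1 member probe set was higher and 1 lower, with 197 probe sets higher and 36 lower in the whole table (84.5% higher), and without the intensity trend 2 were higher and 1 lower, with 625 probe sets higher and 420 lower in all, against 1212 and 1289 in the fit reported. Leaving out 1 array at a time left 2 to 3 member probe sets higher and 2 lower, and 624 to 822 probe sets higher and 446 to 625 lower overall. Of all calls 48.5% were higher, and 36.6% without further normalization; the members then had 3 calls in each direction. Siglece lost its call in 12 of 13 alternatives and was removed by the filter on dim probe sets, which left out the lowest 40%. Uncalled probe sets turned sign: Sirpa 1416986_a_at was at -0.17 without further normalization and from -0.24 to 0.32 with 1 array left out, Sirpa 1416985_at was at 0.10 with median centring, Cd47 1428187_at ran from -0.007 to 0.28 and Cd47 1459908_at from -0.52 to 0.34 with 1 array left out. With 1 array left out, the lone array of a group was assumed to vary like those of the other. The causes were not tested. The 2 arrays per group limit the precision, and pairing was not given by the labels.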
